A study of Mus musculus with 6 samples.

Results

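The genes of MHC class I presentation and of the interferon response were examined in whole lenses of newborn mice. They were chosen by symbol: those beginning with H2-, Oas, Ifi or Isg, the numbered Irf, Stat and Gbp genes, and Tap1, Tap2, B2m, Bst2, Usp18, Mx1 and Mx2. In all, 91 of the 18193 genes measured on the arrays met this rule, through 147 probe sets annotated to a single gene. The tested lenses were transgenic, on 3 arrays, and were compared with wild-type lenses on another 3 arrays. Both groups were Balb/c mice aged 2 days, and 12 lenses of each genotype supplied the RNA. The labels name neither the transgene nor its promoter and leave unsaid whether each replicate is from animals of its own; the p-values speak of how far these 6 samples differ among themselves, and part of that spread may be technical. The prefix rule also takes in genes outside antigen presentation and interferon signalling, among them H2-Ke6, a steroid dehydrogenase gene of the H2 region, and the IRF2-binding proteins.

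MHC class I molecules display peptides from inside the cell to CD8 T cells. Each consists of a polymorphic heavy chain, encoded in the mouse H2 region, and the invariant light chain beta-2 microglobulin, and the Tap1 and Tap2 transporter supplies the peptides. Interferons bind receptors that signal through JAK kinases and STAT factors, and IRF factors, some of them induced in turn, bind response elements upstream of class I, OAS, Ifit, GBP and Mx genes. The lens has no blood vessels of its own, is enclosed in a capsule and is described as an immune-privileged tissue, although a vascular network still surrounds it in newborn mice.

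Values are on a log2 scale, after quantile normalization of the deposited values, and a difference is always transgenic minus wild-type. A gene is represented by its brightest single-gene probe set, and was called higher or lower where the p-value of limma's moderated test, adjusted by Benjamini-Hochberg over all 18193 genes, was under 0.05. By this rule 4 of the 91 genes rose and 1 fell. H2-K1, H2-D1 and H2-T3, all class I heavy chains, and Oas2 were higher, by 0.53 to 0.88 on the log2 scale, and Gbp7 was lower, with a difference of -0.55. The 5 genes make up 5.49% of the 91, against a background of 4.55% over all genes (1.93% higher and 2.61% lower), so the share of members called was near that of the array as a whole. Over all genes 352 were higher and 475 lower, and with the arrays shifted to a common median in place of quantile normalization 252 were higher and 666 lower; among the 91 genes that setting called 3 higher and 3 lower. The groups of arrays did not overlap for 18 members with transgenic above and 11 with transgenic below, which is 31.9% of members against 28.8% of all genes (15.3% above and 13.5% below). The median difference of the 91 was 0.04, and that of all genes was 0.01. At an unadjusted p under 0.05, limma counted 24 of the 91 members and 4073 of the 18193 genes. The second count is the background for the counts at an unadjusted p under 0.05 given by role below.

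**Figure D1:**
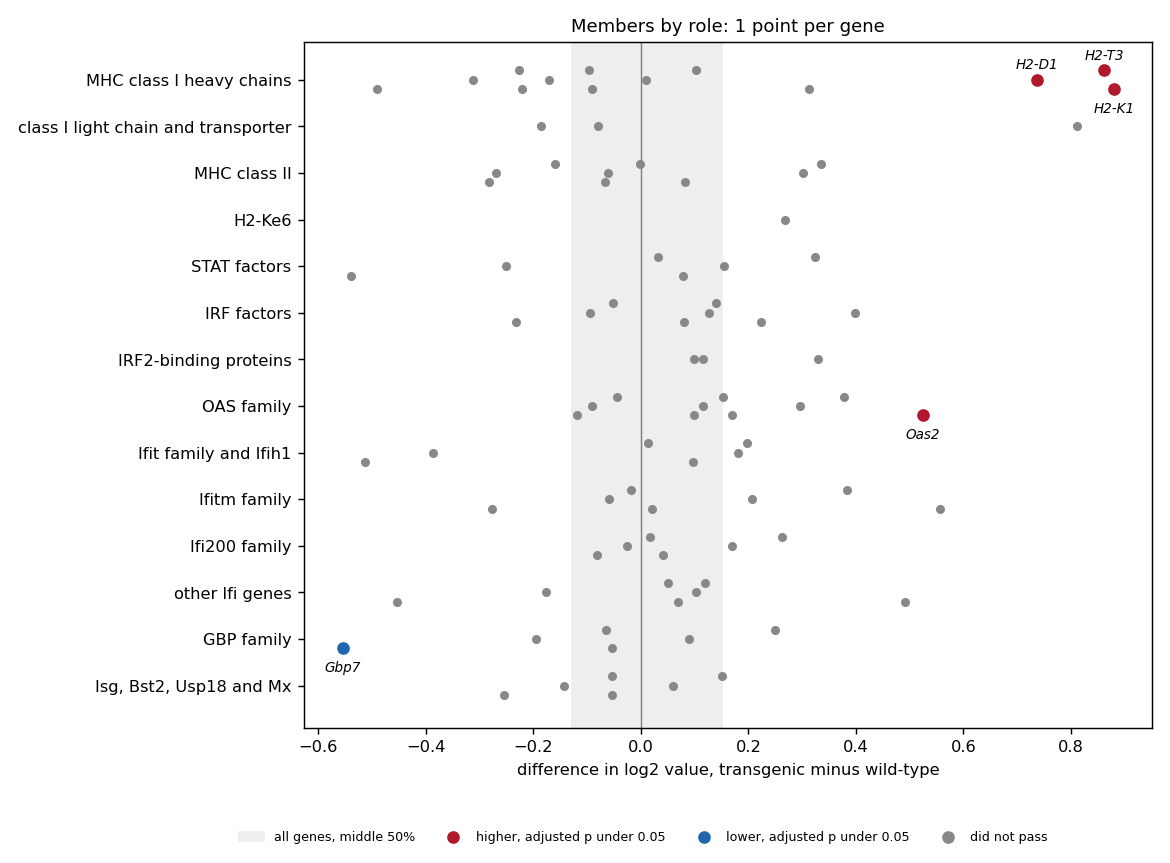
Difference in log2 value (transgenic minus wild-type, x axis) of each of the 91 genes, 1 point per gene, in rows by role. The shaded band spans the lower to the upper quartile of all genes, -0.13 to 0.15. H2-K1, H2-D1, H2-T3 and Oas2 are called higher, Gbp7 lower and the other 86 did not pass.

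Transgenic replicate 3 stood apart from the other 5 arrays in markers of skin, skeletal muscle and mesenchyme. The mean log2 value over 16 skin and surface epithelium markers was 9.21 on that array, against 5.64 and 5.85 on the other transgenic arrays and 5.62 to 6.12 on the wild-type arrays. Over 10 skeletal muscle markers it was 9.01 on that array, with 5.15 and 5.33 on the other transgenic arrays and 5.33 to 5.86 on the wild-type arrays. Lens genes were strongly detected in every sample: over 19 of them the mean log2 value was 13.05 to 13.15 in transgenic lenses and 13.01 to 13.08 in wild-type lenses. Within that list Foxe3 rose by 4.64, and Bfsp1 and Prox1 fell by 1.66 and 1.04. For the 91 genes, each call that was lost without transgenic replicate 3 is marked as such.

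The promoters of the class I genes that rose, with 1 class I gene that was not called, are shown first to set side by side where they hold the letters of 2 elements, through which class I genes are known to respond to NF-kappa-B and to interferon. The windows are RefSeq sequence of GRCm38.p6, 250 bases before to 50 after the annotated start, written 5′ to 3′ on the gene's strand. H2-K1 lies at chr17:34000298-34000597 on the minus strand (1 of 2 windows listed for the gene), H2-D1 at chr17:35262844-35263143 on the plus strand, H2-T3 at chr17:36190102-36190401 on the minus strand and H2-Q10 at chr17:35469839-35470138 on the plus strand. Capitals mark GGGATTCCC, the letters at the core of the kappa-B site of the class I enhancer, and AGTTTCACT, letters of the neighbouring interferon response element. The reference strain is C57BL/6J, whose H2 haplotype differs from that of Balb/c, so the sequences show the reference alleles only.
H2-K1: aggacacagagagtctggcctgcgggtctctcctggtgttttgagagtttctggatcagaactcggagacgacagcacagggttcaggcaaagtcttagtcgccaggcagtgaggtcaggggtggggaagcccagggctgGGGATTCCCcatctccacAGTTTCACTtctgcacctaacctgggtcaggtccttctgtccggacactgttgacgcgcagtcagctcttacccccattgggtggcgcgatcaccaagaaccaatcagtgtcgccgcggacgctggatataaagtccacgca
H2-D1: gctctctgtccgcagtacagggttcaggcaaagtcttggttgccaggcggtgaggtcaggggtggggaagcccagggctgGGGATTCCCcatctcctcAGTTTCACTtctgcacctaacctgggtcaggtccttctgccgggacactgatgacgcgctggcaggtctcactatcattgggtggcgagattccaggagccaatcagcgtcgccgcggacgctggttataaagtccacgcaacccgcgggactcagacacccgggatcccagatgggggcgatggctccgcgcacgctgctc
H2-T3: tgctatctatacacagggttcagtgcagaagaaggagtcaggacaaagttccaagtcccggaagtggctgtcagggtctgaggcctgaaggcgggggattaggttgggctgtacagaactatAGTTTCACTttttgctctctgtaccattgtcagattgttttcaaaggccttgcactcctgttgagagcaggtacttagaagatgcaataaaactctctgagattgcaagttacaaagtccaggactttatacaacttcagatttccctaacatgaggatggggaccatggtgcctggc
H2-Q10: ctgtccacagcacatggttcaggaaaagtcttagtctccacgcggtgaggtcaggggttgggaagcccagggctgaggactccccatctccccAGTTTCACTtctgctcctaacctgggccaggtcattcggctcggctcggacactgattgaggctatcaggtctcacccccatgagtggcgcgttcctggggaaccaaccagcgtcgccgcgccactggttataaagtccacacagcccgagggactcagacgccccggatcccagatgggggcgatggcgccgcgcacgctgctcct

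Both strings stood in the H2-K1 window, GGGATTCCC at 110 to 102 bases before the start and AGTTTCACT at 92 to 84 bases before it. The H2-D1 window had the same pair in the same order, at 170 to 162 and at 152 to 144 bases before the start. Positions count from each annotated start. The letters TATAAA stand after that start in the H2-K1 window and before it in the H2-D1 window. The distances are therefore not comparable between these genes. In the H2-T3 window only AGTTTCACT was found, at 128 to 120 bases before the start, and the H2-Q10 window likewise held it at 157 to 149. Over both strands, GGGATTCCC was present in 116 of 32851 promoter windows of this length (0.353%) and AGTTTCACT in 99 (0.301%). Of the 91 genes, 71 had a window in the table; among them H2-D1, H2-K1 and Irf1 held GGGATTCCC, and H2-D1, H2-K1, H2-T3, H2-Q10, Gbp2, Ifit1, Ifit1bl2 and Ifit3 held AGTTTCACT. Of these 9 genes the 3 class I genes H2-D1, H2-K1 and H2-T3 were called, and H2-Q10, Gbp2, Irf1, Ifit1, Ifit1bl2 and Ifit3 were not. Over all genes 4.55% were called, and a count over 9 genes, some related in sequence, is a description. Oas2, the other gene called higher, had no window in the table and was not searched. Whether the strings bear on the calls was not tested.

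H2-K1 and H2-D1 encode the classical class I heavy chains that present peptides to CD8 T cells. H2-K1 read 7.44, 7.52 and 7.58 in transgenic lenses, against 7.01, 6.34 and 6.55 in wild-type lenses. The groups did not overlap, and the transgenic arrays lay closer together (SD 0.07, n = 3) than the wild-type arrays (SD 0.34, n = 3). The means were 7.51 in transgenic and 6.63 in wild-type lenses, a difference of 0.88 ± 0.16 (SE) or 1.84-fold, with an adjusted p of 0.0284 in limma. H2-D1 read 7.18, 7.24 and 7.64 in transgenic lenses, against 6.64, 6.56 and 6.64 in wild-type lenses. Here the wild-type arrays lay close together and transgenic replicate 3 was the highest of the 6. The means were 7.35 ± 0.25 in transgenic and 6.61 ± 0.05 in wild-type lenses (SD, n = 3 each), a difference of 0.74 ± 0.13 (SE) or 1.67-fold (limma, adjusted p = 0.0229). In bulk tissue, more cells of a type and more RNA per cell cannot be told apart.

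H2-T3 encodes a non-classical class I heavy chain, the thymus leukaemia antigen, known as a ligand of the CD8 alpha homodimer in the intestine. It read 5.55, 5.82 and 5.94 in transgenic lenses, against 5.04, 4.72 and 4.97 in wild-type lenses. All transgenic arrays lay above all wild-type arrays, by 0.86 ± 0.13 (SE) in the means or 1.82-fold (limma, adjusted p = 0.0134). The mean of H2-T3 over the 6 arrays was no higher than 5.34, the median of all probe sets. Without transgenic replicate 3 the H2-D1 and H2-T3 calls held and that of H2-K1 did not (adjusted p = 0.0502). The largest adjusted p with any 1 array left out was 0.102 for H2-K1, 0.0907 for H2-D1 and 0.0639 for H2-T3, and none of the 3 changed sign.

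**Figure D2:**
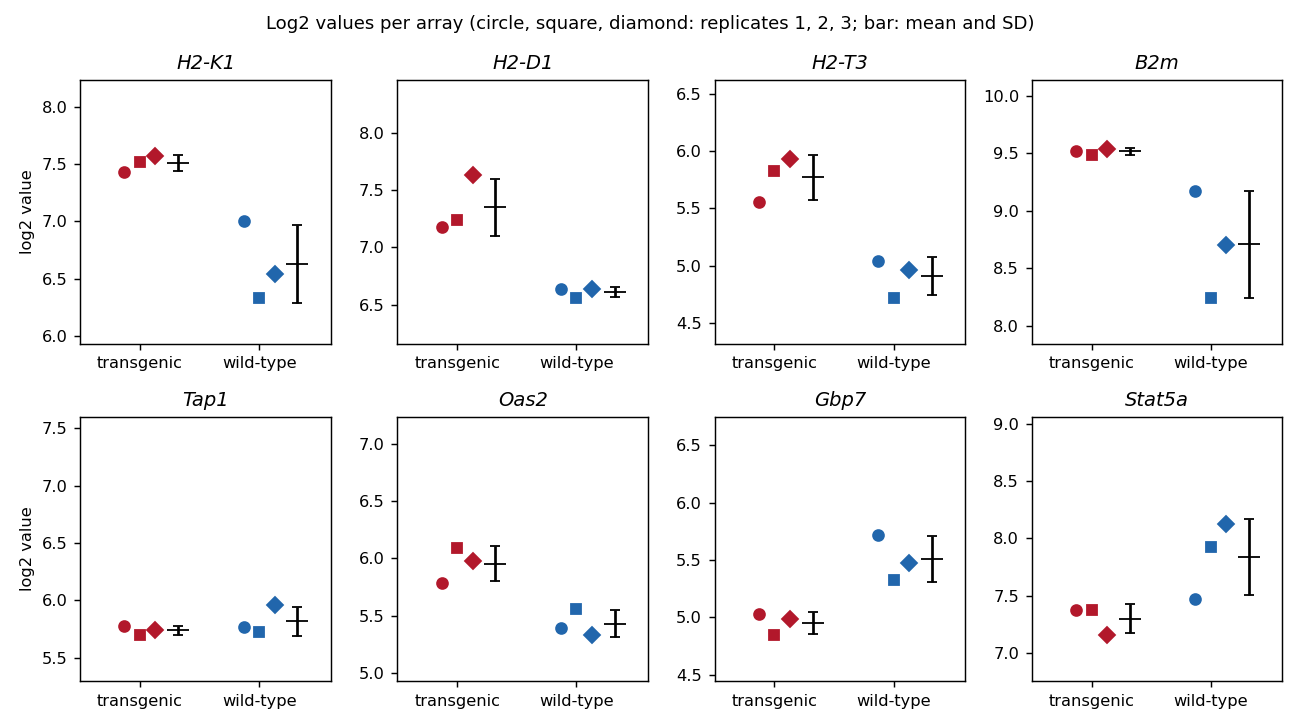
Log2 value per array (y axis) of 8 genes in transgenic lenses (left in each panel) and wild-type lenses (right), with each replicate number as its own symbol and the mean and SD as a bar. The transgenic arrays lie above all wild-type arrays for H2-K1, H2-D1, H2-T3, B2m and Oas2, below them for Gbp7 and Stat5a, and overlap them for Tap1.

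The other probe sets of these genes moved less. H2-K1 had 4 probe sets, all with the x suffix that Affymetrix gives where some probes also match other transcripts, and the other 3 differed by 0.12, 0.23 and 0.28 without passing. H2-D1 had 9, which ran from -0.27 to 0.74. Of these, 7 were above zero and 2 passed over all 45037 probe sets (background 3.68%, with 1.47% higher and 2.21% lower), the second reading 6.59, 6.47 and 6.69 in transgenic lenses, against 6.14, 6.10 and 6.19 in wild-type lenses (difference 0.44, adjusted p = 0.0382). Another H2-D1 probe set differed by 0.53 without passing (adjusted p = 0.0550), and the 2 without the x suffix differed by -0.27 (adjusted p = 0.271) and -0.08 (adjusted p = 0.755). The brightest H2-T3 probe set has the x suffix too. The second H2-T3 probe set, without that suffix and also without overlap between the groups, differed by 0.35 (adjusted p = 0.116). When a gene was represented by the mean of its probe sets, the differences were 0.38 for H2-K1, 0.26 for H2-D1 and 0.61 for H2-T3, and only H2-T3 of the 3 passed. Class I genes are close in sequence, and how well the probes match the Balb/c alleles was not tested.

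**Figure D3:**
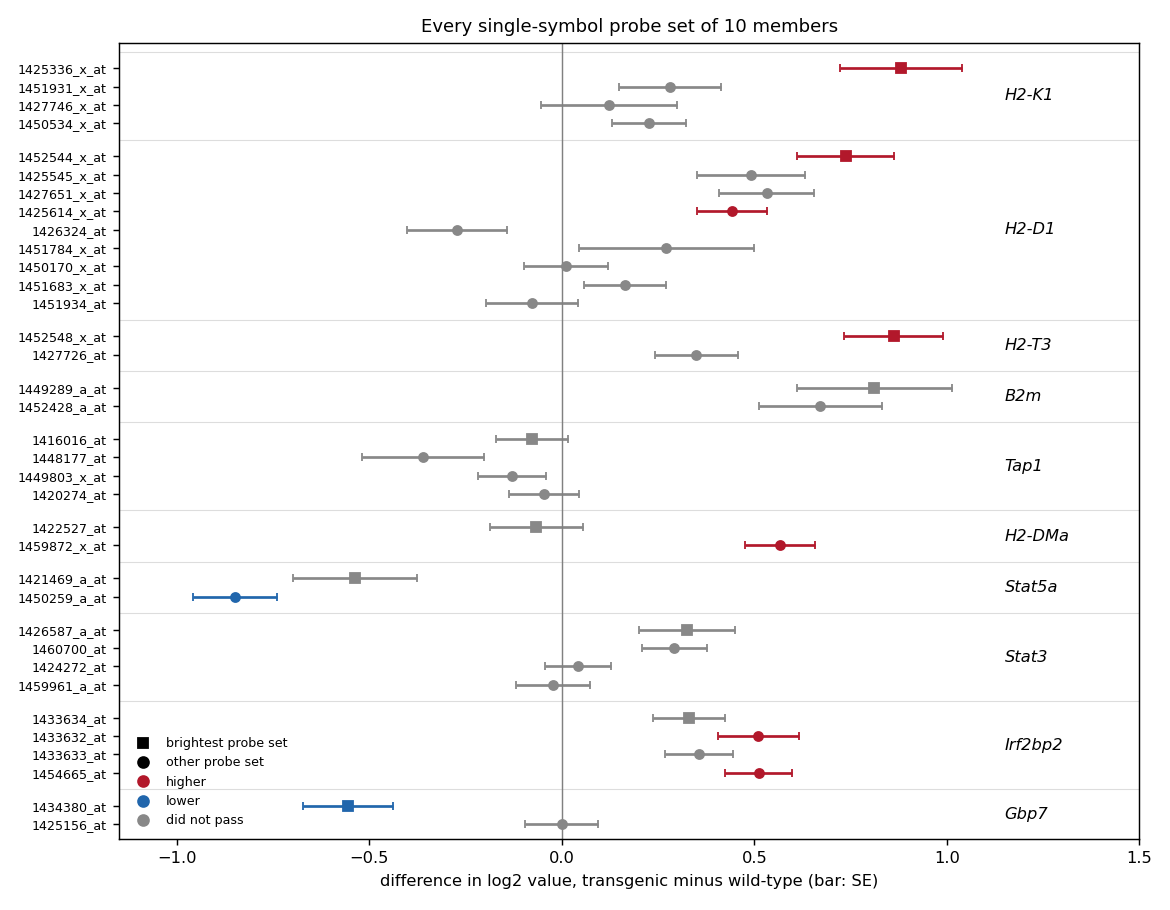
Difference in log2 value (transgenic minus wild-type, x axis, bar for the SE) of every single-gene probe set of 10 genes. Squares mark the brightest probe set of a gene. For H2-K1, H2-D1 and H2-T3 the brightest probe set has the largest difference of its gene, 0.88, 0.74 and 0.86; for Stat5a and H2-DMa the dimmer probe set passes and the brightest does not.

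The other class I heavy chains did not pass. Of 13 measured, 3 rose, 0 fell and 10 did not pass, with a median difference of -0.09. The 3 called are 23.1% of the group, against 4.55% of all genes, and the genes without overlap, 3 above and 3 below, are 46.2%, against 28.8% of all genes; with 13 genes related in sequence these are descriptions. H2-T18, a close relative of H2-T3, read 6.37, 6.55 and 6.56 in transgenic lenses, against 6.67, 7.08 and 7.20 in wild-type lenses. That is -0.49 ± 0.14 (SE) with an adjusted p of 0.0998, with every transgenic array below every wild-type array. The only H2-T18 probe set also has the x suffix, so some of its probes match other transcripts. H2-T18 was called lower with arrays shifted to a common median (adjusted p = 0.0495), with array weights (0.0328) and without wild-type replicate 1 (0.0295). H2-T24 differed by -0.31 (adjusted p = 0.114) and H2-M10.1, of a family known from vomeronasal neurons, by 0.31 (adjusted p = 0.253). The rest lay between -0.23 for H2-Q2 and 0.10 for H2-M3, the heavy chain that presents formylated peptides. H2-Q10, whose window is printed above, read 3.50, 3.57 and 3.48 in transgenic lenses and 3.63, 3.61 and 3.60 in wild-type lenses, a difference of -0.10 at a level below the lower quartile of all probe sets (adjusted p = 0.504).

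Another 15 H2 probe sets were annotated to several genes, and none passed in limma over all probe sets; 2 of them had an unadjusted p under 0.05. The lowest adjusted p was that of the probe set shared by H2-D1, H2-Q2 and Gm38417, which read 4.93, 5.07 and 4.93 in transgenic lenses, against 5.29, 5.36 and 5.40 in wild-type lenses. Its difference of -0.37 (adjusted p = 0.0570) is opposite in sign to that of the brightest H2-D1 probe set. The probe set shared by H2-Q5 and H2-K1 differed by 0.25 (adjusted p = 0.241), that shared by H2-K1 and H2-D1 by -0.02, and that shared by H2-T3 and H2-T18 by 0.08. A probe set of H2-DMb2 and H2-DMb1 differed by -0.33 (adjusted p = 0.140), and the other 10 by -0.19 to 0.25, among them those shared by H2-T-ps and H2-T23, by H2-Q7 and H2-Q9, by H2-Q6 and H2-Q8, with and without H2-Q4, by H2-T9, H2-T10 and H2-T22, by H2-Bl, Gm38417 and LOC547349, and by H2-Ob and Gm20506.

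B2m, the light chain of every class I molecule, read 9.53, 9.48 and 9.54 in transgenic lenses, against 9.18, 8.24 and 8.70 in wild-type lenses. Every transgenic array was above every wild-type array, and wild-type replicate 1 was the nearest to them. The difference was 0.81 ± 0.21 (SE), 1.75-fold, which did not pass (limma, adjusted p = 0.0710); without wild-type replicate 1 it did (adjusted p = 0.0184), and with array weights likewise (0.0238). The second B2m probe set read 8.89, 8.73 and 8.55 in transgenic lenses, against 8.37, 7.75 and 8.04 in wild-type lenses, with a difference of 0.67 (adjusted p = 0.0599). Tap1 averaged 5.74 ± 0.04 in transgenic lenses and 5.82 ± 0.13 in wild-type lenses (SD, n = 3 each), a difference of -0.08 (adjusted p = 0.650), and its 4 probe sets were all below zero, from -0.36 to -0.05. Tap2 averaged 5.33 ± 0.06 in transgenic lenses and 5.52 ± 0.11 in wild-type lenses (SD, n = 3 each), a difference of -0.19 (adjusted p = 0.277). The peptide transporter thus gave no call in either direction.

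The B2m window is shown for comparison with the heavy chains, at chr2:122147437-122147736 on the plus strand, and that of Gbp7, the gene that fell, at chr3:142530086-142530385 on the plus strand. Capitals mark GAAANNGAA on either strand, the letters of the core of the interferon-stimulated response element.
B2m: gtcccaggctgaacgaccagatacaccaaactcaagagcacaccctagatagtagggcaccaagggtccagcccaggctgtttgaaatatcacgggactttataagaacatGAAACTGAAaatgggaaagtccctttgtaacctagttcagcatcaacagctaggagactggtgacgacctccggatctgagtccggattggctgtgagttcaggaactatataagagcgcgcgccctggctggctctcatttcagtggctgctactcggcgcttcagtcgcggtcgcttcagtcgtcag
Gbp7: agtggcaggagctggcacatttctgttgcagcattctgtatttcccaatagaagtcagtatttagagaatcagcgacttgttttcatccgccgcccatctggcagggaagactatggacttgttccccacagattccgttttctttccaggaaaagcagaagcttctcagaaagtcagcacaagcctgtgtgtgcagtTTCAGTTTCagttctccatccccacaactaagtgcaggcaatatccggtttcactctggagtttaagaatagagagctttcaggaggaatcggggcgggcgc

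GAAANNGAA stood at 139 to 131 bases before the B2m start and, on the other strand, at 52 to 44 bases before the Gbp7 start. It was present in 2812 of the 32851 windows (8.56%) and in those of 24 of the 71 member genes with a window, among them Oas1a, Stat2, Irf2, Ifit1 and Ifit3. Of the 24, Gbp7 was called lower and none was called higher, against 2.61% of all genes lower and 1.93% higher. Oas2 had no window to search. None of the marked strings overlapped another in the windows printed.

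MHC class II molecules present peptides from outside the cell to CD4 T cells. Of 9 genes measured, none was called in limma and 2 had an unadjusted p under 0.05, with a median difference of -0.06. The differences ran from -0.28 for H2-Eb1, the beta chain of I-E, to 0.33 for H2-Oa, an inhibitor of peptide exchange. H2-Eb2 had the smallest adjusted p of the group (0.30, adjusted p = 0.0877), and read 5.09, 5.20 and 5.14 in transgenic lenses against 4.76, 4.88 and 4.89 in wild-type lenses. H2-Aa and H2-Ab1, the chains of I-A, differed by -0.16 and -0.06. H2-DMa, a subunit of the peptide exchange factor, differed by -0.07, but its second and dimmer probe set was called higher, at 3.81, 3.96 and 3.82 in transgenic lenses against 3.20, 3.35 and 3.33 in wild-type lenses (difference 0.57, adjusted p = 0.0159 over all probe sets). H2-Ke6 differed by 0.27 (adjusted p = 0.147).

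Among the 6 STAT factors, the carriers of cytokine signals into the nucleus, none was called in limma, with 2 at an unadjusted p under 0.05. Stat5a, which acts downstream of prolactin, growth hormone and several interleukins, read 7.37, 7.37 and 7.16 in transgenic lenses, against 7.47, 7.92 and 8.12 in wild-type lenses. The groups did not overlap, and the difference was -0.54 ± 0.16 (SE) without passing (adjusted p = 0.108). Its second probe set read 5.94, 5.92 and 5.68 in transgenic lenses, against 6.58, 6.67 and 6.84 in wild-type lenses, and was called lower with a difference of -0.85 (adjusted p = 0.00626 over all probe sets). Stat5a as a gene was called lower with the mean of its probe sets, with arrays shifted to a common median, with array weights and without wild-type replicate 1. Stat3, the factor of the interleukin-6 family of cytokines, differed by 0.32 (adjusted p = 0.185), and Stat2, a part of the complex that type I interferons activate, by -0.25 (adjusted p = 0.353). Stat4, Stat5b and Stat6 differed by 0.15, 0.08 and 0.03.

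None of the 8 IRF factors was called in limma, and 2 had an unadjusted p under 0.05. Irf7, which drives interferon-alpha genes, read 5.52, 5.93 and 5.95 in transgenic lenses, against 5.30, 5.23 and 5.68 in wild-type lenses. The groups overlapped and the difference of 0.40 did not pass (adjusted p = 0.194). Irf1, an activator of class I genes, read 7.10, 7.02 and 6.99 in transgenic lenses, against 6.96, 6.70 and 6.78 in wild-type lenses, without overlap but by a small difference of 0.22 (adjusted p = 0.220). Irf2, which competes with Irf1 for the same sites, differed by -0.23, and Irf3 and Irf9, the first an activator of interferon-beta and the other the DNA-binding partner of Stat2, by 0.08 and -0.09. Of the 3 genes for IRF2-binding proteins, none passed on its brightest probe set. Irf2bp2, a corepressor, differed by 0.33 on its brightest probe set (adjusted p = 0.0886), and 2 of its other 3 probe sets were called higher, each by 0.51 (adjusted p = 0.0382 and 0.0195 over all probe sets). On the brighter of these it read 8.87, 8.61 and 8.69 in transgenic lenses, against 8.10, 8.34 and 8.19 in wild-type lenses. With the mean of its 4 probe sets, all without overlap between the groups, Irf2bp2 was called higher (0.43, adjusted p = 0.0266). Irf2bp1 differed by 0.12 and Irf2bpl by 0.10.

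The OAS enzymes make oligoadenylates that activate RNase L on contact with double-stranded RNA. Of 10 genes measured, 1 rose, 0 fell and 9 did not pass, with a median of 0.13. Over all genes 1.93% were called higher and 2.61% lower. The groups did not overlap for 5 OAS genes, 50% of the 10, against 28.8% of all genes. Of these, 4 had transgenic above (15.3% of all genes) and 1, Oas1c, had transgenic below (13.5% of all genes). Oas2 read 5.79, 6.09 and 5.98 in transgenic lenses, against 5.39, 5.56 and 5.33 in wild-type lenses. The groups were clear of each other, with means of 5.95 ± 0.15 in transgenic and 5.43 ± 0.12 in wild-type lenses (SD, n = 3 each) and a difference of 0.53 ± 0.11 (SE) or 1.44-fold (limma, adjusted p = 0.0392). Oas2 had a single probe set, and its call was lost without any 1 of the 6 arrays, at an adjusted p of up to 0.132. Oas1b differed by 0.30 (adjusted p = 0.126), and Oasl1, known in mice as a brake on Irf7 translation, by 0.38 with overlap (adjusted p = 0.284). Oas1a differed by 0.12, Oas3 by 0.17 and Oas1c by -0.12.

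The direct antiviral effectors gave no call. Ifit proteins bind viral RNA and Ifih1 senses long double-stranded RNA; of these 6 genes limma called none, with 2 at an unadjusted p under 0.05. Ifit3 read 5.48, 5.83 and 5.62 in transgenic lenses, against 6.20, 5.91 and 5.97 in wild-type lenses. All transgenic arrays were below all wild-type arrays for Ifit3 (difference -0.39, adjusted p = 0.118) and for Ifit2 (-0.51, adjusted p = 0.142), whereas Ifit1 lay above without overlap (0.18, adjusted p = 0.236). Ifit1bl2 differed by 0.20 and Ifih1 by 0.10. Of the 7 genes of the Ifitm family, which blocks viral entry, none was called and 1 had an unadjusted p under 0.05. Ifitm1 had the largest difference, 0.56, but its arrays overlapped, at 6.37, 6.89 and 7.45 in transgenic lenses and 6.62, 5.92 and 6.50 in wild-type lenses (adjusted p = 0.290). Ifitm3 differed by 0.38 (adjusted p = 0.508), Ifitm10 by -0.28 and Ifitm2 by -0.02.

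The group of Isg20, Isg20l2, Bst2, Usp18, Mx1 and Mx2 had no gene called and none at an unadjusted p under 0.05 in limma. Bst2, which tethers budding virus to the cell, differed by -0.26 (adjusted p = 0.371). Mx1 and Mx2, GTPases that block virus replication, differed by -0.14 and 0.15, and Usp18, which removes Isg15 from proteins and damps interferon signalling, by 0.06. Isg15 was measured only on a probe set shared with Gm9706, which read 5.77, 5.61 and 5.56 in transgenic lenses, against 6.03, 5.90 and 6.04 in wild-type lenses. Its difference was -0.34 with the groups apart and did not pass (adjusted p = 0.0875 over all probe sets). Another 9 probe sets shared between members and other genes gave no call.

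The GBP family consists of GTPases that coat pathogen vacuoles. Gbp7 read 5.03, 4.84 and 4.99 in transgenic lenses, against 5.72, 5.33 and 5.47 in wild-type lenses. The groups did not overlap, and Gbp7 fell by 0.55 ± 0.12 (SE), 1.47-fold (limma, adjusted p = 0.0415). The call was lost without any 1 of the 6 arrays (adjusted p up to 0.140), and a second Gbp7 probe set read 4.78, 4.63 and 4.87 in transgenic lenses and 4.76, 4.69 and 4.83 in wild-type lenses, a difference near 0. With the mean of its probe sets Gbp7 differed by -0.28 and did not pass (adjusted p = 0.139). All 6 GBP genes measured had means at or below the median of all probe sets; the other 5 did not pass and ran from -0.19 for Gbp6 to 0.25 for Gbp2b. The Ifi200 genes, whose products sense DNA, were also all dim, and of the 6 none was called and 1 had an unadjusted p under 0.05 (Ifi203, 0.26, adjusted p = 0.180). Of 7 other Ifi genes none was called and 2 had an unadjusted p under 0.05. Ifi30, a lysosomal reductase of antigen processing, read 8.06, 8.25 and 8.68 in transgenic lenses, against 8.05, 7.58 and 7.89 in wild-type lenses (difference 0.49, adjusted p = 0.164), and Ifi27l2b differed by -0.45 (adjusted p = 0.117).

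The pathway around the members was followed in 6 further gene lists that hold no member, with 144 genes measured. In limma none rose and 8 fell, so 5.56% were called lower, against 2.61% of all genes, and 0 higher, against 1.93% of all genes. The median difference was 0.03. The lists were chosen with earlier results of these data known, so these shares are descriptions and no measure of an excess. Of 16 genes of class I processing and loading, 1 fell. This was Cul1, a cullin scaffold of ubiquitin ligases with no role confined to antigen presentation, at 9.26, 9.30 and 9.20 in transgenic lenses against 9.90, 10.04 and 10.03 in wild-type lenses (difference -0.74, adjusted p = 0.00386). The immunoproteasome subunits Psmb8, Psmb9 and Psmb10 differed by -0.01, 0.13 and 0.13, and the loading factor Tapbp by 0.17. Nlrc5, the transactivator of class I genes, read 7.12, 6.73 and 6.70 in transgenic lenses, against 6.96, 7.29 and 7.81 in wild-type lenses, a difference of -0.50 with overlap that did not pass (adjusted p = 0.222).

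Of 12 class II processing genes 2 fell. Lgmn, a lysosomal protease, differed by -0.74 (adjusted p = 0.00587) and Rfxap, a subunit of the factor that binds class II promoters, by -0.45 (adjusted p = 0.0246). A second Rfxap probe set differed by -0.04 (adjusted p = 0.851), and the Rfxap call was lost with the mean of both (-0.25, adjusted p = 0.0943), with the replicate block and without transgenic replicate 1 or 2 or wild-type replicate 2 or 3 (adjusted p up to 0.104). The invariant chain Cd74 differed by 0.19 and the class II transactivator Ciita by 0.16 without passing. Among 13 interferon ligands and receptors 1 fell, the interferon gene Ifnz (-0.41, adjusted p = 0.0406). This call was lost with trended robust variances (0.0541), with the replicate block (0.101) and without any 1 of the 6 arrays (adjusted p 0.0526 to 0.143). The receptor genes Ifnar1, Ifnar2, Ifngr1 and Ifngr2 differed by -0.09, 0.17, 0.08 and -0.13. Of 21 JAK kinases and feedback genes 1 fell. Socs2, an inhibitor of cytokine receptor signalling, read 6.12, 6.17 and 6.05 in transgenic lenses, against 6.93, 6.91 and 6.72 in wild-type lenses (difference -0.74, adjusted p = 0.00587), but it had 6 probe sets whose mean differed by -0.22 without passing. Jak3 differed by 0.33 (adjusted p = 0.0573) and Socs1 by 0.03.

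In nucleic acid sensing, 1 of 23 genes fell in limma, the signalling adaptor Traf6 (-0.57, adjusted p = 0.0254). The call was lost with the replicate block (0.0874) and without transgenic replicate 1 or 2 or wild-type replicate 2 or 3 (adjusted p 0.0597 to 0.104). Other Traf6 probe sets differed by -0.91 and -0.87, both called lower over all probe sets (adjusted p = 0.00667 and 0.0357). Those at -0.29 and 0.24 did not pass (adjusted p = 0.175 and 0.514). The RNA sensor Ddx58 differed by 0.32 and Dhx58 by 0.47 without passing (adjusted p = 0.0805 and 0.104). Of 62 other interferon-stimulated genes 2 fell. Gch1, the first enzyme of tetrahydrobiopterin synthesis, read 5.14, 5.26 and 4.93 in transgenic lenses, against 6.50, 6.52 and 6.56 in wild-type lenses (-1.42, adjusted p = 0.00055), although a second Gch1 probe set differed by 0.06 (adjusted p = 0.780). Tdrd7, known in the lens as a component of RNA granules, read 11.94, 11.88 and 11.88 in transgenic lenses, against 12.94, 13.19 and 13.25 in wild-type lenses (-1.23, adjusted p = 0.000843). Genes at the core of an interferon response in this list, such as Rsad2 (0.13) and Cxcl10 (0.07), did not pass.

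**Figure D4:**
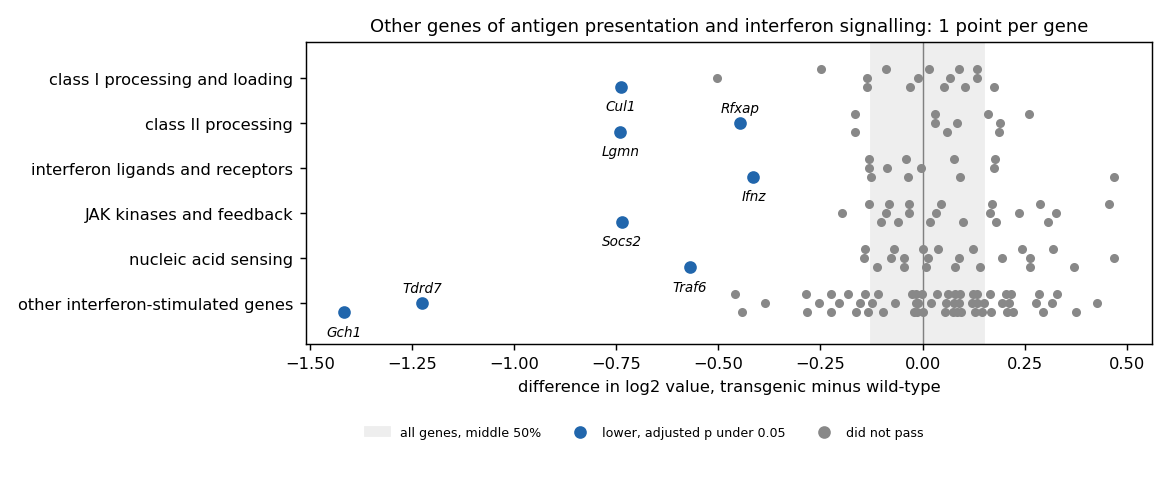
Difference in log2 value (transgenic minus wild-type, x axis) of the 144 genes in 6 lists of antigen processing and interferon signalling, 1 point per gene in each list that holds it; the shaded band spans the quartiles of all genes. The named points are the 8 genes called lower, and none is called higher.

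Markers of blood cells and vessels, which carry MHC and interferon genes at high levels, were read beside the members. Of 18 myeloid markers limma called none, and their mean log2 value was 5.83, 5.83 and 5.99 in transgenic lenses, against 5.99, 5.64 and 5.86 in wild-type lenses. The defining leukocyte gene Ptprc read 3.77, 3.60 and 3.69 in transgenic lenses, against 3.99, 3.87 and 3.80 in wild-type lenses, all below 4.18, the lower quartile of all probe sets. Csf1r, a macrophage receptor, was at 8.32, 8.53 and 8.74 in transgenic lenses and 8.77, 7.83 and 8.21 in wild-type lenses (adjusted p = 0.540). Within the wild-type group, replicate 1 was highest and replicate 2 lowest for the myeloid list, as for B2m, H2-K1, Ifitm3 and Ifi35. The same order held for H2-D1, H2-T3, Irf1 and Ifi30, and for Gbp7, Ifit2 and Ifit3, whose differences were below zero. For Stat5a and H2-T18, wild-type replicate 1 was instead the lowest of its group. The share of all genes with replicate 1 highest and replicate 2 lowest was not counted. The endothelial list stood at 6.76, 6.75 and 6.60 in transgenic lenses and at 6.96, 6.57 and 6.80 in wild-type lenses, with the same order among the wild-type arrays. The part of these cells in the B2m and H2-K1 values was not tested.

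Of 15 lymphocyte and dendritic cell markers 1 rose in limma, the T cell receptor subunit Cd3e (0.49, adjusted p = 0.0303). That is 6.67% of the list, against 1.93% of all genes called higher. Cd3d, Cd3g, Cd247 and Cd8a, other T cell markers, differed by 0.12, -0.22, -0.03 and 0.06 and did not pass. The list mean was 5.40, 5.42 and 5.32 in transgenic lenses, against 5.25, 5.41 and 5.42 in wild-type lenses. Of 16 endothelial markers 1 rose in limma, Tek (0.49, adjusted p = 0.0465), which is 6.25% of the list, against 1.93% of all genes. In that list 12 were below zero, with a median of -0.10. Of 18 neural retina markers 17 were below zero and 2 were called lower, which is 11.1% of the list, against 2.61% of all genes. The list means were 7.19, 7.79 and 7.44 in transgenic lenses and 8.11, 7.94 and 7.61 in wild-type lenses. Of 10 pigment epithelium and iris markers limma called none, with 1 at an unadjusted p under 0.05, and 9 were above zero, with list means of 6.90, 7.94 and 7.35 in transgenic lenses and 7.20, 7.02 and 6.95 in wild-type lenses, transgenic replicate 2 being the highest. The pericyte and mesenchyme markers stood at 6.89, 7.05 and 9.12 in transgenic lenses and 7.05, 6.89 and 6.69 in wild-type lenses. Transgenic replicate 3 was also the highest of the 6 arrays for H2-K1, H2-D1, H2-T3, B2m, Ifi30, Ifitm1 and Ifitm3. Its lead over the next array was small for H2-K1 (7.58 against 7.52) and B2m (9.54 against 9.53). Oas2 was highest on transgenic replicate 2, and Irf1, Irf2bp2, H2-Ke6, Oas1b and Ifi203 on transgenic replicate 1. The share of all genes highest on each array was not counted. Without transgenic replicate 3 the difference was 0.59 in place of 0.74 for H2-D1 and 0.78 in place of 0.86 for H2-T3, and both calls held. It was 0.85 in place of 0.88 for H2-K1, whose call was lost, and 0.80 in place of 0.81 for B2m, which was not called. The part of skin, muscle and mesenchyme RNA in the values of these genes was not tested.

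**Figure D5:**
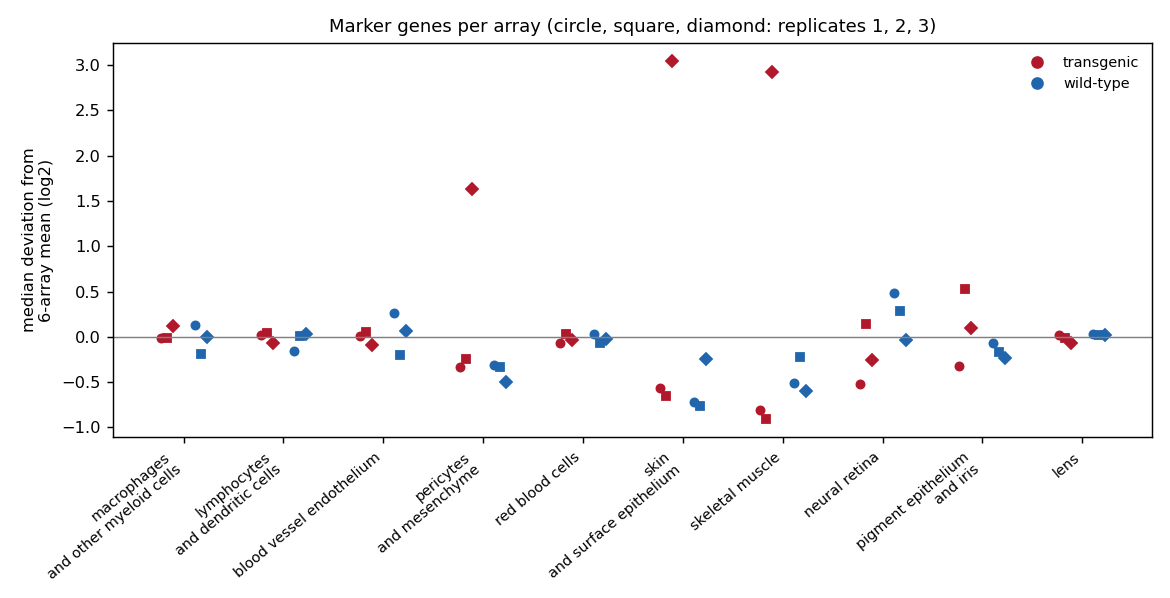
Median over each marker list of the difference from a marker's own mean over the 6 arrays, on the log2 scale (y axis), per array, with transgenic arrays left of wild-type arrays in each list. Transgenic replicate 3 lies at 3.05 for skin, 2.93 for muscle and 1.63 for mesenchyme, while for myeloid markers wild-type replicates 1 and 2 lie at 0.13 and -0.19.

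The genes whose values ran most like those of the called members over the 6 arrays, among genes above the median level, were looked up as a description, since arrays of 2 groups share the genotype difference. They were Unc5b, Cd82 and Cox7a2l for H2-K1, with Pearson correlations of up to 0.995, and Polr1d, Cdk10 and B4galt1 for H2-D1, with up to 0.997. For H2-T3 they were Ptpn14, Saraf and Hadh (up to 0.999), for Oas2 Rtl8c, Rabgap1 and Marchf6 (up to 0.997) and for Gbp7 Tmem106c, Rbm8a and 0610009B22Rik (up to 0.996). None of these genes is a member of the set.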

How the data were processed

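Per the labels' protocols, biotin was introduced into the total RNA of whole lenses by in vitro transcription. The deposited table gives 1 log2 value per probe set and array, a scale read from its range (2.68 to 14.8); how the authors summarised and normalized the arrays is not given in the sources used here. The 64 control probe sets were set aside, leaving 45037. Because upper quartiles of the arrays differed by 0.120, over a limit of 0.1, quantile normalization was applied. Gene symbols came from GEO's annotation of the platform and were brought up to date through gene identifiers (99.4% matched): 34945 had 1 symbol, 932 several and 9160 none here. Genotypes were compared with limma 3.58.1 (R 4.3.3; lmFit, eBayes; prior of 3.80 degrees of freedom), with Benjamini-Hochberg adjustment over 18193 genes or, where stated, 45037 probe sets. The fit was tested on simulated data.

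The members and gene lists were chosen with earlier results of these data known. Named are called members, the 12 with the smallest p, core members, the extremes of each role, called genes of the pathway lists or their 2 smallest p, and H2 probe sets with several symbols; Isg20, Isg20l2, Oas3, the IRF2-binding proteins and the pathway genes that did not pass were added after their values were seen. The number of arrays, 3 a group, limits the precision. Alternatives were the deposited values, a common median, dim probe sets left out, the mean of probe sets, trended robust variances, array weights, a replicate block and each array left out.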

Additional observations from a re-analysis of the deposited data

How the results depend on the processing

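The 5 calls among the members rest on few arrays. With the deposited values and with trended robust variances the same 4 genes were higher and Gbp7 lower. H2-K1 was lost with a common median (adjusted p = 0.0573), H2-K1, H2-D1 and Gbp7 with the mean of probe sets, and all 5 with the replicate block; none changed sign. H2-T3 and Gbp7 are dim and were not tested with dim probe sets left out. Members called higher ran from 0 to 3 with 1 array left out and numbered 0 with the replicate block. Members called lower numbered 3 with a common median, 0 with dim probe sets left out, 3 with array weights, 0 with the block and 0 to 2 with 1 array left out. No member was called without transgenic replicate 2, wild-type replicate 2 or wild-type replicate 3. Without transgenic replicate 1, and without transgenic replicate 3, only H2-D1 and H2-T3 were called. Without wild-type replicate 1, B2m, H2-K1 and H2-T3 were called higher and H2-T18 and Stat5a lower.

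Over all genes 599 were higher and 790 lower with array weights, 69 and 154 with the block, and 70 to 249 and 156 to 385 with 1 array left out. Pathway genes called higher numbered 1 with deposited values, 1 with dim probe sets left out, 1 with the mean of probe sets, 2 with trended variances and 1 with array weights; those called lower numbered 5 with the block and 5 to 7 with 1 array left out. Of the H2 probe sets with several symbols, 1 passed with array weights. Genes with differences near 0 turned sign without being called: with 1 array left out, Ifih1 ran from -0.049 to 0.229, Irf3 from -0.0044 to 0.195, Mx2 from -0.0043 to 0.233 and Usp18 from -0.026 to 0.169 (and -0.00096 without transgenic replicate 3), and Irf3 was -0.0034 with a common median and -0.12 with the mean of probe sets. The cause of these changes was not tested.

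Deviations of same-numbered arrays from their group means correlated at -0.05, 0.08 and 0.03. Arrays of different numbers were not compared in this way, so these values cannot settle whether the replicate numbers pair the samples. With the replicate number as a block no member passed in limma, the adjusted p being 0.0625 to 0.0794 for the 5 called genes.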
